A study of Prunus dulcis with 36 samples.

Results

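Abnormal fruitlets of the almond (Prunus dulcis) cultivar 'ZhiPi' at 22, 27 and 32 days after flowering (DAF) are described here. They were chosen by their labels, tissue condition abnormal and one of these 3 stages, and make up 9 of the 36 samples of the series, with 3 replicates at each stage. Abnormal fruits were the atrophied fruitlets that the study judged the likeliest to be shed, and normal fruits were taken from the same branches, so both types share cultivar and trees, and no treatment is named for either. The 9 normal samples of the same stages serve as the reference. In every replicate several fruits per tree were cut up and pooled, and the replicates are described by the study as biological. Expression was deposited as 1 column per group, the authors' mean normalized FPKM (fragments per kilobase of transcript, scaled to the size of the library) over the 3 replicates, so 3 of the 12 deposited columns hold these fruits. Values of the single replicates were not used here, so the differences below come without a measure of replicate error and without a test.

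A fruitlet that stops growing competes poorly for sugar and is cut off at an abscission zone at its base. Auxin leaving the fruit holds that zone closed, ethylene and abscisic acid favour its opening, and enzymes that take apart pectin loosen the cells there. In the weeks after petal fall a normal almond fruit grows by division and then expansion of pericarp cells and by growth of the seed coats, while the embryo is still very small. Whole fruits contain all of these tissues, and in such bulk samples fewer cells of a type and less RNA per cell cannot be told apart.

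The columns list 8676 unigenes, which are the gene-level units of the transcripts that the authors assembled. Of these, 3949 were above 0 at all 3 stages in abnormal fruits and 1917 were listed at 0 at all 3. How many reads stand behind a value is unknown, for those listed at 0 too, so no detection limit can be given. Summed over the listed unigenes, FPKM came to 221844, 281346 and 294817 at the 3 stages in order. One unigene without a held annotation (DN23546_c1_g1, picked out for its level) made up 3.49%, 3.27% and 12.3% of these totals. Names were at hand for 753 of the listed unigenes, 445 of them with a best database match in Rosaceae, the family of almond. The 6 listed seed tissue markers added up to 26.6, 48.2 and 16.7 FPKM at 22, 27 and 32 DAF, with 5, 4 and 4 of them above 0. Unigenes without a name at hand could not be searched for more, and the hydrophobic seed protein DN14733_c0_g1, placed in the lipid list, is not among the 6. How abundant seed proteins were as a whole is therefore unknown. In normal fruits they added up to 36.9, 39.7 and 16.9 FPKM at these stages. Provicilin (DN13930_c0_g1), a storage globulin, was listed at 0 at all 3 stages in abnormal fruits.

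The 22 DAF column of abnormal fruits differed from the later ones in the organisms its unigenes matched. Of 173 named unigenes whose best match is a species of Brassicaceae, the cabbage family, 97 (56.1%) were above 0 in abnormal fruits at 22 DAF, but 0 of them at 27 DAF and just 1 at 32 DAF. At 12 DAF 145 of them were above 0 in abnormal and 123 in normal fruits, and at 17 DAF 127 in normal fruits, but no more than 1 in any of the other 8 groups, abnormal fruits at 17 DAF among them. Their summed FPKM at 22 DAF was 153, or 0.0690% of the column. Another 63 unigenes have a best match outside the land plants, and 25, 25 and 28 of them were above 0 in abnormal fruits at 22, 27 and 32 DAF, against no more than 1 in each of the 12 DAF groups and in normal fruits at 17 DAF. Abnormal fruits at 22 DAF were thus the one group of the 12 in which a large part of both sets was above 0. Rosaceae matches showed no such step, with 69.9%, 74.6% and 73.5% of the 445 above 0 from 22 to 32 DAF. Across all listed unigenes, 541 were above 0 in abnormal fruits at 22 DAF and at 0 in those 8 groups. The part of these unigenes in the differences between 22 DAF and the later stages was not tested. With 1 mean per group it could not be checked whether all 3 replicates labelled abnormal at 22 DAF share the pattern or whether their labels hold, and every difference from 22 DAF below rests on that column.

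**Figure D1:**
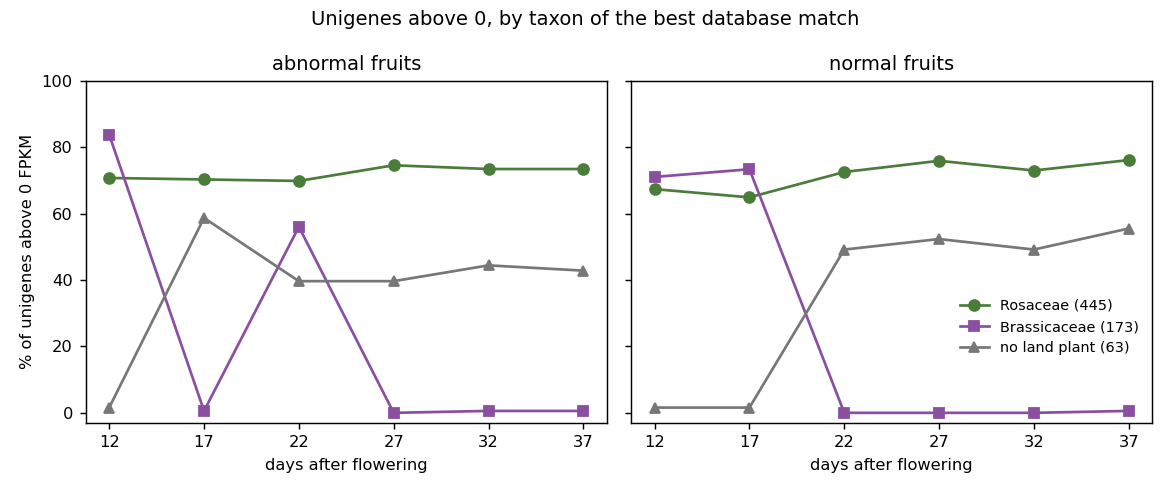
Percentage of unigenes above 0 FPKM (vertical axis) by days after flowering (horizontal axis) in abnormal (left) and normal fruits (right), for unigenes whose best database match is in Rosaceae (445), in Brassicaceae (173) or outside the land plants (63). Each point is 1 deposited column. The Brassicaceae line stands at 56.1% at 22 DAF in abnormal fruits and at 0 at 27 DAF, whereas the Rosaceae line stays between 69.9% and 74.6% from 22 to 32 DAF.

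The step from 22 to 27 DAF was the larger of the 2 in abnormal fruits, and most of it was towards higher values. Stages were compared as differences in log2(FPKM + 1), later minus earlier, and a unigene counted as changed where the difference passed 1 in either direction. The added 1 damps ratios of values near 0 and understates the differences of weakly expressed unigenes. From 22 to 27 DAF, 2009 unigenes (23.2% of all listed) were higher at 27 DAF and 951 (11%) were lower. From 27 to 32 DAF, 866 (9.98%) were higher at 32 DAF and 1201 (13.8%) lower. Over both steps together, 1579 (18.2%) were higher at 32 than at 22 DAF and 896 (10.3%) lower, a majority that turned to 1232 higher and 1274 lower with each column brought to the same total. Listed zeros make up a large part of these counts. Of the 2009 higher unigenes 959 were listed at 0 at 22 DAF, and of the 951 lower ones 537 were listed at 0 at 27 DAF.

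The excess of higher values in the step from 22 to 27 DAF depended on how the columns were scaled. Among the 3949 unigenes above 0 at all 3 stages the median difference was 0.38 on the log2(FPKM + 1) scale, so that an average unigene was already higher at 27 DAF. With median-of-ratios scaling, which sets that shift of 0.47 on the log2 scale to 0, 1540 unigenes were higher and 1348 lower, and 53.3% of the changed unigenes were higher instead of 67.9%. With each column brought to the same total, 1671 were higher and 1234 lower. Between 22 and 32 DAF the counts under median-of-ratios scaling were 1316 higher against 1224 lower. Leaving out the 541 unigenes with the 22 DAF pattern of the Brassicaceae matches left 646 lower from 22 to 27 DAF and 591 lower from 22 to 32 DAF. Since those unigenes are at 0 at 27 and 32 DAF by definition, the counts of higher ones could not change. Setting abnormal fruits at 17 DAF in place of those at 22 DAF gave 2155 higher and 518 lower at 27 DAF. In the step from 27 to 32 DAF the shift was −0.13 on the log2 scale, and 908 unigenes were higher and 1075 lower with median-of-ratios scaling.

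**Figure D2:**
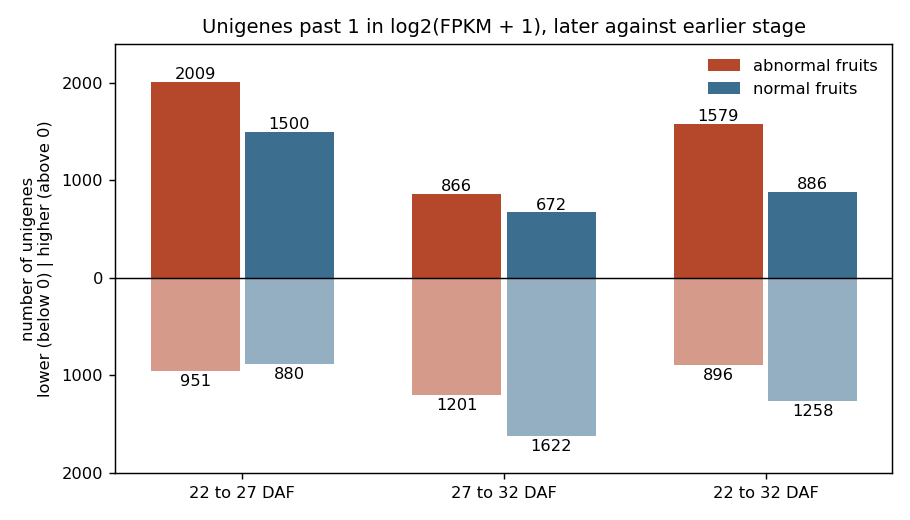
Number of unigenes (vertical axis) past 1 in log2(FPKM + 1) for 3 pairs of stages (horizontal axis), higher at the later stage above 0 and lower at the later stage below 0, in abnormal (left bar) and normal fruits (right bar). Abnormal fruits have 2009 higher and 951 lower unigenes from 22 to 27 DAF, and 866 higher and 1201 lower ones from 27 to 32 DAF.

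Over all listed unigenes, about as many of those higher at 27 DAF returned by 32 DAF as stayed, while most lower ones stayed. Of the 2009 unigenes higher at 27 than at 22 DAF, 995 (49.5%) were lower again by more than 1 at 32 DAF, 962 stayed within 1 and 52 (0.599% of all listed) were higher still. Of the 951 lower ones, 153 (16.1%) were higher again at 32 DAF, 779 stayed within 1 and 19 (0.219% of all listed) were lower still. Among unigenes above 0 at all 3 stages, 305 of the 1016 higher ones returned, so most of these did not. A further 661 unigenes stayed within 1 in the step to 27 DAF and were higher at 32 DAF. The 995 peaks at 27 DAF are 11.5% of the listed unigenes and the 153 troughs 1.76%. Both steps share the 27 DAF mean, so an error in that column moves them in opposite directions. Of the troughs, 73 were among the unigenes above 0 at all 3 stages, where 388 were lower at 27 than at 22 DAF. Of the 951 lower ones over all listed unigenes, 305 are among the 541 at 0 at 27 and 32 DAF by definition. Those could not return.

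Several single unigenes swung widely around 27 DAF. The largest differences towards 27 DAF among unigenes of at least 1 FPKM at both stages had no name at hand: DN26947_c0_g2 had 104, 2798 and 835 FPKM at 22, 27 and 32 DAF (4.73 from 22 to 27 DAF), and DN17502_c0_g1 had 65.8, 1536 and 340 FPKM (4.52). DN26135_c1_g1, with 23.5, 544 and 35.8 FPKM, was the third in that step (4.48) and also stood among the 3 largest peaks of unigenes of at least 1 FPKM at all 3 stages, with −3.89 from 27 to 32 DAF. The other 2 of these peaks were DN24988_c3_g2 at 1.81, 50.5 and 2.42 FPKM and DN17327_c0_g1 at 16.6, 233 and 8.47 FPKM. DN25513_c1_g1, with 0.561, 52.2 and 1.42 FPKM, had among unigenes of at least 1 FPKM at 27 and 32 DAF the second largest difference towards lower values (−4.46), after DN17327_c0_g1 (−4.62). In normal fruits the 3 peaks also had their highest value of the 3 stages at 27 DAF, with 302 FPKM for DN26135_c1_g1, 31.8 FPKM for DN24988_c3_g2 and 107 FPKM for DN17327_c0_g1. On the way down, DN26841_c1_g1 had 40.7, 1.5 and 2.83 FPKM and DN24244_c3_g2 81.1, 4.41 and 17.3 FPKM at the 3 stages.

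Among the named unigenes of Rosaceae of at least 1 FPKM at 22 and 27 DAF, a zinc finger, a calmodulin-like, a DUF1677 and a glyoxalase-like protein had, in that order, the largest differences towards higher values at 27 DAF. Of the 445, there were 105 (23.6%) with higher and 51 (11.5%) with lower values at 27 than at 22 DAF, and 49 (11.01%) were higher and 73 (16.4%) lower at 32 than at 27 DAF, shares close to those of all listed unigenes. CML44 (DN13459_c0_g1), a calmodulin-like protein of the kind that binds calcium as a signal, had 5.34, 105 and 8.02 FPKM at 22, 27 and 32 DAF, and 1.86, 56.4 and 4.6 FPKM in normal fruits. ZAT5 (DN14998_c0_g1), a zinc finger protein of a family of stress-related repressors, had 8.96, 186 and 54.7 FPKM, and 6.67, 99.2 and 38 FPKM in normal fruits. A unigene with a glyoxalase-like domain (DN13563_c0_g1) had 33.8, 451 and 90.8 FPKM, against 50.1, 248 and 58.7 FPKM in normal fruits. These 3 therefore peaked in both fruit types, at a higher value in abnormal fruits. The differences were 4.07, 4.23 and 3.70 from 22 to 27 DAF and −3.56, −1.75 and −2.30 from 27 to 32 DAF.

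**Figure D3:**
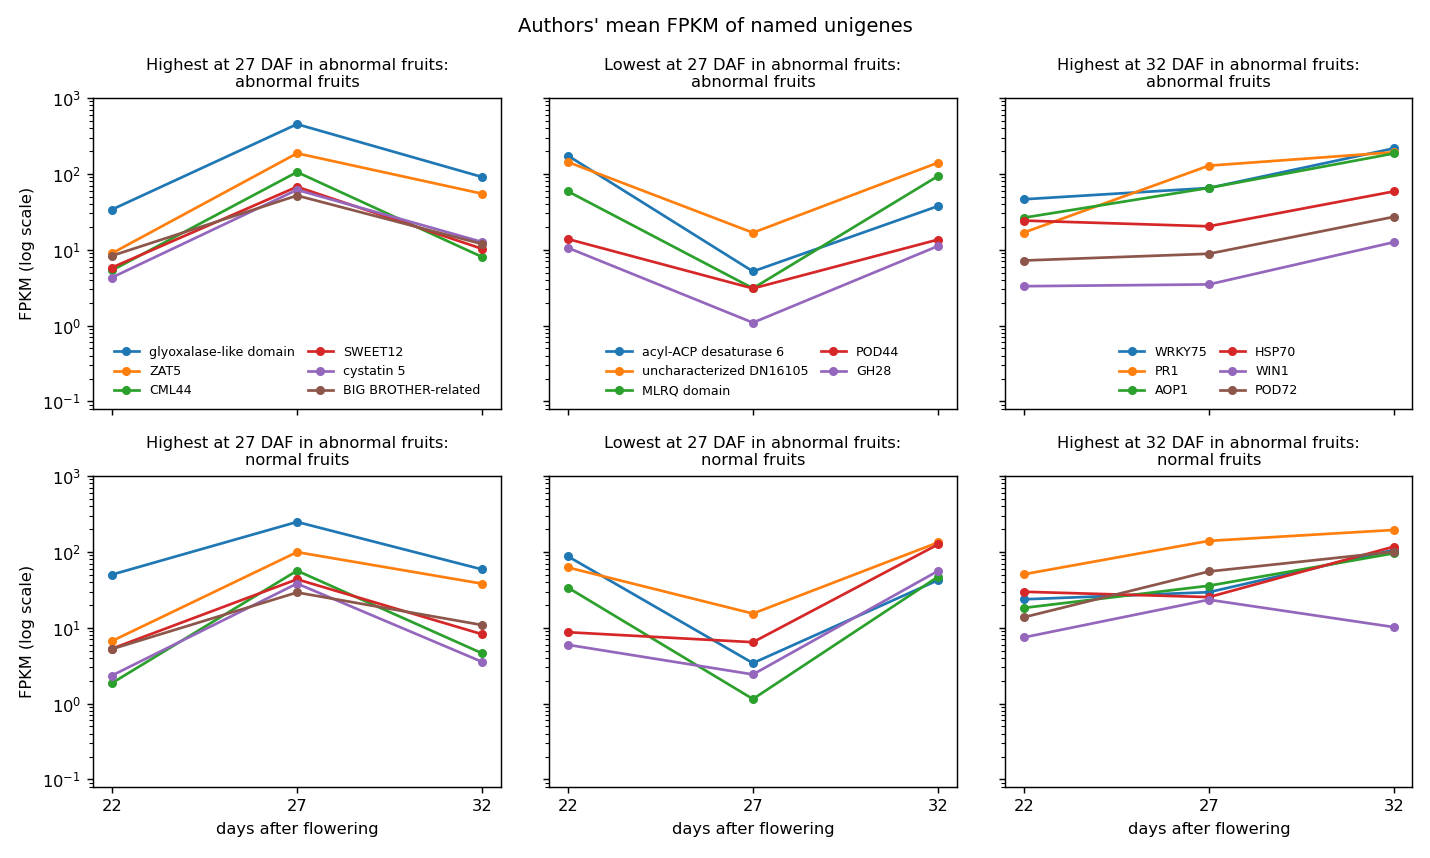
FPKM on a log scale (vertical axis) by days after flowering (horizontal axis) of named unigenes in abnormal (upper row) and normal fruits (lower row), for unigenes highest at 27 DAF, lowest at 27 DAF and highest at 32 DAF in abnormal fruits. Each point is the authors' mean of a group. CML44 goes through 5.34, 105 and 8.02 FPKM in abnormal fruits, and WIN1 is highest at 32 DAF in abnormal fruits (12.6 FPKM) but at 27 DAF in normal fruits (23.4 FPKM).

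Of the transcription factors that passed 1, more were higher than lower in both steps. Of 28 listed members, 9 (32.1%, against 23.2% of all listed unigenes) were higher and 2 (7.14%, against 11%) lower at 27 than at 22 DAF. At 32 against 27 DAF 7 (25%, against 9.98%) were higher and 2 (7.14%, against 13.8%) lower, and the median difference of the list was 0. In normal fruits 8 (28.6%, against 17.3%) were higher and 0 (against 10.1%) lower from 22 to 27 DAF. From 27 to 32 DAF 5 (17.9%) were higher there, against 7.75% of all listed unigenes, and 5 (17.9%, against 18.7%) lower. Basic leucine zipper 43 (DN13517_c0_g1) had 1.95, 16.5 and 11.1 FPKM at 22, 27 and 32 DAF. RAX3 (DN27205_c2_g1), a MYB protein that acts in axillary bud formation in Arabidopsis, was listed at 8.50 FPKM at 27 DAF and at 0 at 22 and 32 DAF, and had 1.92 FPKM at 27 DAF and 0 at the other 2 stages in normal fruits. MYB39 (DN26519_c2_g1) had 1.11, 4.44 and 2.07 FPKM and the Myb-like DN21330_c0_g1 10.5, 18.8 and 16.6 FPKM. Members of several families were highest at 32 DAF, such as ERF098 (DN12621_c0_g1, 6.92 FPKM) and the Myb-related Zm38 (DN13075_c0_g1, 4.73 FPKM). Among them were 2 WRKY factors, a family known from defence and senescence. WRKY75 (DN26011_c0_g2) had 46.2, 65 and 216 FPKM, and 23.7, 29.4 and 106 FPKM in normal fruits, with a difference of 1.72 from 27 to 32 DAF in abnormal fruits. WRKY61 (DN16000_c0_g1) was listed at 0 at 22 and 27 DAF and had 24.8 FPKM at 32 DAF, against 5.39 FPKM in normal fruits at 32 DAF. Ethylene-responsive factors went different ways. ERF12 (DN12781_c0_g1) had 7.34, 1.75 and 2.78 FPKM (−1.60 from 22 to 27 DAF), while RAP2-11 (DN13238_c0_g1), singled out after its values were seen, had 0.322, 4.0 and 11.2 FPKM and was higher by more than 1 in each step.

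Of the abscisic acid receptors, PYR1 and PYL8 had higher values at 27 than at 22 DAF, as had a gibberellin-regulated protein, but how many of the 3 passed 1 depended on the scaling. Of 5 listed members of the list of other hormones, 3 (60%, against 23.2% of all listed unigenes) were higher at 27 than at 22 DAF. Lower were 0, against 11%, and from 27 to 32 DAF 0 were past 1, where 76.2% of all listed unigenes stayed within 1. In normal fruits 1 of the 5 was higher and 0 were lower from 22 to 27 DAF. PYR1 (DN24477_c0_g1), a receptor that blocks protein phosphatases when abscisic acid is bound, had 273, 550.5 and 399.9 FPKM (1.01), and 454, 698 and 485 FPKM in normal fruits. PYL8 (DN22391_c0_g1), of the same receptor family, had 22.6, 59.5 and 37.1 FPKM (1.36). A further receptor, DN23029_c0_g1, had 56.1, 52.7 and 74.3 FPKM. The gibberellin-regulated protein 11-like (DN26787_c1_g1) had 7.32, 21 and 22.4 FPKM (1.40), against 9.89, 42.7 and 47.1 FPKM in normal fruits. With equal totals, PYL8 (1.03) and the gibberellin-regulated protein (1.09) were still past 1 from 22 to 27 DAF and PYR1 (0.67) was not, and with median-of-ratios scaling 0 of the 5 were.

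Auxin genes showed no common course. Of 6 listed, 1 (16.7%) was higher and 0 were lower in each of the 2 steps. Of all listed unigenes 23.2% were higher and 11% lower in the first step, and 9.98% and 13.8% in the second. IAA13, a repressor of auxin responses, was lower with each stage in both of its unigenes, at 354, 242 and 164 FPKM for DN26918_c0_g2 and 21.4, 19.96 and 15.4 FPKM for DN26918_c0_g1. Each step was within 1, but over both steps DN26918_c0_g2 was lower by more than 1 (−1.10 from 22 to 32 DAF). Both had higher values in normal fruits at every stage, with 559.6, 324 and 262 FPKM for DN26918_c0_g2. For the auxin-induced protein 15A (DN18673_c0_g1) the values were 12.9, 26.7 and 14 FPKM. An auxin responsive protein (DN10050_c0_g1) was listed at 0 at 22 DAF in both fruit types and had 27.0 and 14.6 FPKM at 27 and 32 DAF in abnormal fruits, against 17.5 and 12.7 FPKM in normal fruits.

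Genes of sugar and organic acid metabolism held a few members with large differences, and their shares were near those of all listed unigenes. Of 15 listed members 4 (26.7%, against 23.2%) were higher and 1 (6.67%, against 11%) was lower from 22 to 27 DAF, with 66.7% within 1 against 65.9%. From 27 to 32 DAF 1 (6.67%, against 9.98%) was higher and 2 (13.3%, against 13.8%) were lower. SWEET12 (DN25084_c2_g5), a carrier that lets sucrose out of cells in Arabidopsis leaves, had 5.81, 67.4 and 10.3 FPKM (3.33 and −2.60), and 5.29, 43.4 and 8.20 FPKM in normal fruits. NADP-dependent malic enzyme 2 (DN7242_c0_g1), which turns malate into pyruvate, had 248, 729 and 566 FPKM (1.55 from 22 to 27 DAF), and 392, 601 and 632 FPKM in normal fruits. The enzymes of sugar phosphate metabolism were steadier. Fructose-bisphosphate aldolase (DN27174_c3_g1) had 366, 276 and 339.6 FPKM, fructose-1,6-bisphosphatase (DN18563_c0_g1) 75.5, 65.5 and 40.7 FPKM and alkaline/neutral invertase B (DN27666_c0_g1) 41.3, 48.3 and 43.7 FPKM. Those 3 stayed within 1 in both steps. Near the lower end, aldose 1-epimerase (DN13867_c0_g1) was listed at 1.73 FPKM at 27 DAF and 0 at the other 2 stages, and malate dehydrogenase (DN15548_c0_g2) at 0, 1.41 and 1.005 FPKM. Succinate dehydrogenase (DN18450_c0_g1) had 0.310, 0 and 0.442 FPKM and the nucleotide-diphospho-sugar transferase DN27333_c2_g3 2.03, 3.17 and 1.68 FPKM. Citrate synthase 4 (DN23508_c0_g1) and lactate/malate dehydrogenase (DN15548_c0_g1) were listed at 0 at all 3 stages in abnormal fruits. Both activities belong to the basic metabolism of living cells, so a listed 0 is not read here as absence of the enzyme. The best match of DN15548_c0_g1 lies outside the land plants, so whether it is an almond unigene is unknown. In normal fruits DN15548_c0_g1 had 4.19, 3.96 and 0 FPKM.

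Pectin-related genes split between higher and lower. Of 13 listed cell wall members, 2 (15.4%, against 23.2% of all listed unigenes) were higher and 2 (15.4%, against 11%) lower from 22 to 27 DAF. From 27 to 32 DAF 1 (7.69%, against 9.98%) was higher and 3 (23.1%, against 13.8%) were lower. The glycosyl hydrolase family 28 unigene DN20503_c0_g2, of the polygalacturonase family that cuts pectin, had 10.6, 1.09 and 11.2 FPKM (−2.47 and 2.54), against 5.95, 2.42 and 56.0 FPKM in normal fruits. An opposite course, highest at 27 DAF, was seen for pectinesterase 29 (DN16980_c0_g1) with 2.18, 10.01 and 3.81 FPKM and for a putative invertase inhibitor (DN14218_c0_g1) with 74.6, 272 and 129.6 FPKM. The inhibitor had 253, 299.6 and 253 FPKM in normal fruits, so abnormal fruits were, as a ratio, furthest below normal ones at 22 DAF. The family 2 glycosyltransferase DN23864_c0_g1 had 16.6, 11.5 and 13.8 FPKM.

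A fatty acid desaturase was far lower at 27 than at 22 DAF and partly returned. Acyl-[acyl-carrier-protein] desaturase 6 (DN20506_c0_g1), of the plastid enzymes that place the first double bond in fatty acids, had 174, 5.17 and 37.5 FPKM at 22, 27 and 32 DAF, a difference of −4.82 and then of 2.64. The first of these was the largest of all towards lower values, among listed unigenes of at least 1 FPKM at both stages. Normal fruits had 87.3, 3.41 and 42.3 FPKM, likewise lowest at 27 DAF. An acyl-coenzyme A thioesterase 13-like unigene (DN16027_c0_g1) had 241, 906 and 625 FPKM (1.90 from 22 to 27 DAF) and non-specific phospholipase C1 (DN17810_c0_g2) 78.9, 228 and 163 FPKM (1.52). Lower at 32 than at 27 DAF were the hydrophobic seed protein DN14733_c0_g1, with 50.9, 28.9 and 11.4 FPKM, and the lipid transfer protein DIR1 (DN14988_c0_g1), singled out after its values were seen, with 38.3, 14 and 5.97 FPKM. WIN1 (DN16580_c0_g1), which switches on cutin and wax synthesis in Arabidopsis, had 3.3, 3.48 and 12.6 FPKM (1.60 from 27 to 32 DAF), but 7.45, 23.4 and 10.2 FPKM in normal fruits, where it was lower at 32 than at 27 DAF. Over the list of 14, 3 (21.4%, against 23.2% of all listed unigenes) were higher and 3 (21.4%, against 11%) lower in the step to 27 DAF. In the step to 32 DAF 2 (14.3%, against 9.98%) were higher and 3 (21.4%, against 13.8%) lower.

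Of the 153 troughs at 27 DAF, 34 (22.2%) were shared with normal fruits, which is 19.8% of their 172. Among all listed unigenes 1.76% were troughs in abnormal fruits. DN20037_c0_g1, with the domain of the MLRQ subunit of mitochondrial complex I, had 58.8, 3.10 and 93.4 FPKM (−3.87 and 4.53) and was the largest trough of all unigenes of at least 1 FPKM at the 3 stages. In normal fruits it had 33.8, 1.15 and 46.9 FPKM. The next in size were DN16794_c0_g1, without a name at hand, at 28.6, 1.58 and 25.3 FPKM and the uncharacterized Rosaceae protein DN16105_c0_g1 at 143, 16.7 and 140.3 FPKM. DN27529_c3_g1, also without a name, had 14, 1.57 and 46.3 FPKM, against 6.37, 8.70 and 467 FPKM in normal fruits. Among unigenes of at least 1 FPKM at 27 and 32 DAF it had the third largest difference towards higher values, 4.20, after DN22285_c0_g1 at 4.37, 2.26 and 79.3 FPKM (4.62) and DN20037_c0_g1.

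Of the listed redox enzymes, 6 had a difference below 0 from 22 to 27 DAF, and those past 1 were all lower. Of 9 listed, 0 (against 23.2% of all listed unigenes) were higher and 4 (44.4%, against 11%) were lower from 22 to 27 DAF, with a median difference of −0.63. That median is the value of peroxidase 65 (DN16310_c0_g1), which was listed at 0.545 and 0 FPKM at these 2 stages. From 27 to 32 DAF 2 (22.2%, against 9.98%) were higher and 0 (against 13.8%) lower. The peroxidase POD44 (DN24026_c1_g1), of the secreted class III peroxidases, had 13.8, 3.08 and 13.6 FPKM (−1.86 and 1.84), against 8.72, 6.44 and 125 FPKM in normal fruits. A multicopper oxidase (DN19594_c0_g1) had 10.7, 2.18 and 1.39 FPKM (−1.88) and an L-ascorbate oxidase homolog (DN24542_c2_g4) 108, 43.1 and 45.5 FPKM (−1.30). Monothiol glutaredoxin-S2 (DN16099_c0_g1), the most abundant of the 9, went the other way but stayed within 1. It had 149.5, 294 and 273 FPKM (0.97 from 22 to 27 DAF). In normal fruits 1 of the 9 was higher and 1 lower by more than 1 from 22 to 27 DAF. POD72 (DN18908_c0_g2), of the class of POD44, was higher by more than 1 in abnormal fruits only in the step to 32 DAF. It had 7.20, 8.83 and 27.1 FPKM in abnormal fruits and 13.7, 55.1 and 100.4 FPKM in normal fruits.

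Most ribosomal proteins and chaperones had lower values at 27 than at 22 DAF in abnormal fruits. Of the 12 listed members, 9 had a difference below 0, and 3 (25%, against 11% of all listed unigenes) were lower and 0 higher by more than 1, with a median of −0.67. In normal fruits 4 of the 12 had a difference below 0, 1 was higher and 0 were lower by more than 1, and the median was 0.16. The 60S ribosomal protein L17-2 (DN17803_c0_g1), part of the large ribosomal subunit, had 107, 33.6 and 60.6 FPKM (−1.64), against 83.8, 103 and 82.0 FPKM in normal fruits. L31 (DN15664_c0_g2) of the same subunit had 468, 192 and 214 FPKM (−1.28), against 369, 391 and 349 FPKM in normal fruits, and the chaperone dnaJ 11 (DN9504_c0_g1) 141, 53.8 and 78.1 FPKM (−1.37). At 22 DAF both ribosomal proteins were thus higher in abnormal than in normal fruits, and at 27 and 32 DAF lower. Both scalings lower the differences from 22 to 27 DAF by construction, in either fruit type, and the median of the list was then −1.02 with equal totals and −1.14 with median of ratios, against −0.27 and −0.20 in normal fruits. Under these scalings 6 and 7 of the 12 were lower by more than 1, beside 14.2% and 15.5% of all listed unigenes, and 0 of the 12 in normal fruits. From 27 to 32 DAF the 70 kDa heat shock protein DN27837_c1_g4 was the 1 member past 1, with 24.2, 20.3 and 58.6 FPKM (1.48).

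**Figure D4:**
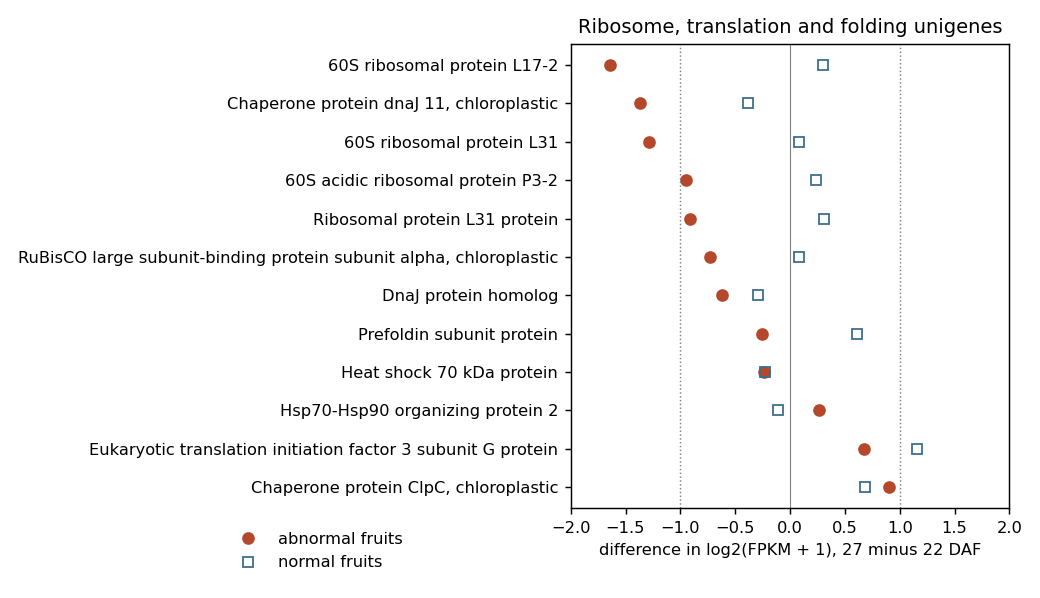
Difference in log2(FPKM + 1), 27 minus 22 DAF (horizontal axis), of the 12 listed ribosome, translation and folding unigenes (vertical axis) in abnormal (filled circles) and normal fruits (open squares). Dotted lines mark differences of 1 in size. L17-2 stands at −1.64 in abnormal fruits, and the medians are −0.67 in abnormal and 0.16 in normal fruits.

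Protein turnover genes had shares near those of all listed unigenes. Of 23 listed, 7 (30.4%, against 23.2%) were higher and 2 (8.7%, against 11%) lower from 22 to 27 DAF. With median-of-ratios scaling these were 5 (21.7%, against 17.8%) and 4 (17.4%, against 15.5%). From 27 to 32 DAF 1 (4.35%, against 9.98%) was higher and 3 (13%, against 13.8%) were lower. Cysteine proteinase inhibitor 5 (DN16037_c0_g1), of the cystatins that block papain-like proteases, had 4.29, 61.5 and 12.6 FPKM (3.56 and −2.20), and 2.34, 38.2 and 3.54 FPKM in normal fruits. An E3 ubiquitin ligase related to BIG BROTHER (DN10111_c0_g1), which limits organ size in Arabidopsis, had 8.31, 51.7 and 11.9 FPKM (2.5 and −2.03), and 5.23, 29.1 and 10.8 FPKM in normal fruits. Lower at 27 DAF were the F-box protein DN25142_c2_g1, with 188, 54.4 and 98.7 FPKM (−1.77) against 147, 153 and 140.3 FPKM in normal fruits, and the F-box unigene DN15785_c0_g1, with 5.15 FPKM at 22 DAF and 0 at the later stages.

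Transport genes and defence genes held members that changed in either direction. Of 21 listed transport members, 7 (33.3%, against 23.2% of all listed unigenes) were higher and 2 (9.52%, against 11%) lower from 22 to 27 DAF. From 27 to 32 DAF 3 (14.3%, against 9.98%) were higher and 5 (23.8%, against 13.8%) lower. The WAT1-related transporter DN15597_c0_g1 had 2.40, 35.7 and 22.2 FPKM (3.43), and the amino acid permease BAT1 homolog DN25724_c0_g5 was listed at 0, 6.64 and 0.528 FPKM. The aquaporin TIP1-3 (DN14028_c0_g1), a water channel of the vacuole membrane, was lower by more than 1 in each step, at 40.8, 11.7 and 4.52 FPKM, and had 27.3, 3.03 and 0.837 FPKM in normal fruits. Among 18 listed defence and receptor kinase members, 5 (27.8%, against 23.2% of all listed unigenes) were higher and 2 (11.1%, against 11%) lower from 22 to 27 DAF. From 27 to 32 DAF 6 (33.3%, against 9.98%) were higher and 2 (11.1%, against 13.8%) lower, or 5 and 2 with equal totals. Only 4 of the 18 reached 5 FPKM at any of the stages, and 2 of these were higher in the first step and 1 in the second. Pathogenesis-related protein 1 (DN16394_c0_g1), a marker of salicylic acid responses, was by far the most abundant of them, with 16.8, 128 and 193 FPKM (2.86 and 0.59), against 50.6, 139 and 194 FPKM in normal fruits. Abnormal fruits were thus below normal ones at 22 DAF and close to them at 32 DAF. The receptor kinase DN25408_c0_g1 had 1.31, 0 and 5.18 FPKM, the ABC transporter G41 (DN12093_c0_g1) was above 0 only at 32 DAF, at 8.39 FPKM, and the receptor-like kinase DN15061_c0_g1 only at 27 DAF, at 5.73 FPKM.

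**Figure D5:**
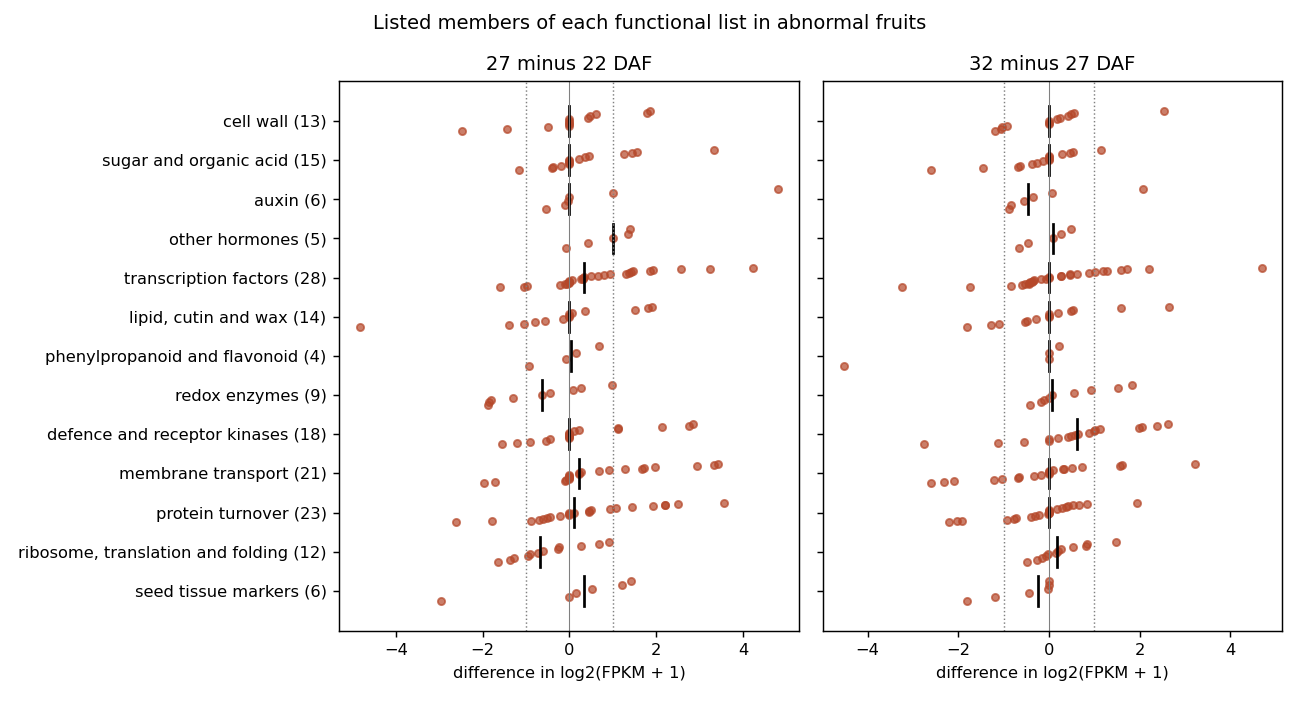
Difference in log2(FPKM + 1) (horizontal axis) of every listed member of 13 functional lists (vertical axis, number of listed members in parentheses) in abnormal fruits, 27 minus 22 DAF on the left and 32 minus 27 DAF on the right. Points are unigenes, black bars are list medians and dotted lines mark differences of 1 in size. The ribosome, translation and folding list (median −0.67) and the redox list (−0.63) stand lowest in the step to 27 DAF, and the defence list (0.61) highest in the step to 32 DAF.

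Seed markers, secondary metabolism and some lesser known genes completed the named set. Late embryogenesis abundant protein D-29 (DN16562_c0_g1) had 15.7, 37.5 and 10.004 FPKM (1.21 and −1.81) and AGL80 (DN16282_c0_g1), which acts in the central cell and endosperm of Arabidopsis, 2.19, 7.60 and 5.32 FPKM. A vicilin (DN13857_c0_g1) had 6.74 FPKM at 22 DAF and 0 at the later stages, with 4.18 FPKM and then 0 in normal fruits. Of 4 listed phenylpropanoid and flavonoid members, 0 were past 1 from 22 to 27 DAF, where 65.9% of all listed unigenes stayed within 1. From 27 to 32 DAF 0 (against 9.98%) were higher and 1 (25%, against 13.8%) was lower. That 1 was DN27852_c1_g1, annotated as (S)-N-methylcoclaurine 3'-hydroxylase isozyme 2. It had 23.3, 22.1 and 0 FPKM, against 54.0, 0 and 19.3 FPKM in normal fruits. A dioxygenase annotated as AOP1 (DN15629_c0_g1) was higher by more than 1 in each step, at 26.4, 65.2 and 186 FPKM, and nerolidol synthase 2 (DN14125_c0_g1), a terpene synthase, had 0.738, 2.35 and 9.46 FPKM. The DUF1677 protein (DN15865_c0_g1) had 2.52, 45.1 and 56.5 FPKM (3.71 from 22 to 27 DAF), against 16, 38.7 and 26.5 FPKM in normal fruits. Lower from 22 to 27 DAF without a return was the WEB family protein DN13845_c0_g1, at 66.3, 14.2 and 13.8 FPKM (−2.15 and −0.04). Purple acid phosphatase 15 (DN21705_c0_g1) had 3.01, 1.57 and 2.27 FPKM. The 25 unigenes that the study names with their IDs are a list it chose on these samples and therefore no independent evidence of a direction. From 22 to 27 DAF 7 (28%, against 23.2% of all listed unigenes) were higher and 4 (16%, against 11%) lower. With median-of-ratios scaling these were 4 (16%, against 17.8%) and 5 (20%, against 15.5%). From 27 to 32 DAF 3 (12%, against 9.98%) were higher and 1 (4%, against 13.8%) was lower.

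Further Rosaceae matches with large differences carry little functional information. Higher at 27 DAF were the uncharacterized DN15266_c0_g1 at 6.11, 56.5 and 11 FPKM and DN16550_c0_g1 at 4.63, 33.8 and 21.1 FPKM. Lower at 27 DAF were the hypothetical proteins DN22553_c0_g2 at 19.1, 2.59 and 6.14 FPKM, DN15392_c0_g1 at 11.7, 2.38 and 1.5 FPKM and DN19192_c0_g1 at 20.5, 5.05 and 6.97 FPKM. In the step to 32 DAF, an acetyltransferase (DN14078_c0_g1) had 4.74, 3.31 and 17.1 FPKM and the hypothetical DN12776_c0_g1 0, 1.02 and 6.17 FPKM. Lower at 32 than at 27 DAF were a unigene with a NADH dehydrogenase subunit domain (DN16014_c0_g1) at 13.2, 48.7 and 10.5 FPKM and one with a self-incompatibility S1 domain (DN15904_c1_g1) at 3.99, 13.3 and 3.13 FPKM, so that both peaked at 27 DAF.

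Normal fruits changed over the same days in part in the same unigenes. They had 1500 unigenes (17.3%) higher and 880 (10.1%) lower from 22 to 27 DAF, and 672 (7.75%) higher and 1622 (18.7%) lower from 27 to 32 DAF. Over both steps 886 (10.2%) were higher and 1258 (14.5%) lower, where abnormal fruits had 1579 higher and 896 lower. With equal totals abnormal fruits had 1232 higher and 1274 lower, and normal fruits 713 higher and 1674 lower. Of the unigenes higher at 27 than at 22 DAF, 782 were shared, which is 38.9% of those of abnormal and 52.1% of those of normal fruits. Another 293 were higher at 27 DAF in abnormal but lower in normal fruits, 33.3% of those lower in normal fruits. Of all listed unigenes 23.2% were higher in abnormal fruits in that step. The other way round were 40, or 2.67% of those higher in normal fruits, against 11% of all listed unigenes lower in abnormal fruits. From 27 to 32 DAF, 251 were higher in both (37.4% of those of normal fruits, against 9.98%). Lower in both were 458 (28.2%, against 13.8%). Higher in abnormal but lower in normal fruits were 253 (15.6%, against 9.98%), and 77 (11.5%, against 13.8%) the reverse. Of the peaks at 27 DAF, 298 were shared, 29.9% of the 995 in abnormal fruits and 31.1% of the 958 in normal fruits. Peaks made up 11.5% of all listed unigenes in abnormal and 11% in normal fruits. Among named unigenes with opposite courses, the uncharacterized DN17443_c0_g1 had 17.6, 7.80 and 32.3 FPKM in abnormal fruits and 17.4, 43.3 and 5.14 FPKM in normal fruits, and the uncharacterized DN27790_c2_g1 62.7, 36.8 and 8.97 FPKM in abnormal and 68.4, 9.96 and 60.1 FPKM in normal fruits. Neither these differences between fruit types nor the shares were tested.

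Across all 8676 listed unigenes, Pearson's r of log2(FPKM + 1) between the stages of abnormal fruits was 0.82 for 22 and 27 DAF, 0.84 for 27 and 32 DAF and 0.84 for 22 and 32 DAF. Set against normal fruits, the 27 and 32 DAF columns were most alike with those of the same stage, at 0.87 and 0.90. The 22 DAF column was most alike with normal fruits at 17 DAF, at 0.89, and next with those at 22 DAF, at 0.87. These values describe columns that share the assembly and the unigenes at 0, and the order of close ones cannot be ranked without replicates.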

How the data were processed

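RNA of abnormal and normal almond fruits was sequenced by the authors at 6 stages with 3 replicates per group. Per the paper's methods, the authors assembled unigenes with Trinity, aligned clean reads with Bowtie2, estimated counts with RSEM and, after DESeq2 normalization, deposited FPKM, as 1 mean per group. Versions are not given in the sources used here. All 12 columns were mapped by name, 0 per-sample columns were left over, and depth per value is unknown. All 8676 listed unigenes differ from normal fruits at 12 DAF by 1 or more in log2(FPKM + 1) in some group, so less variable unigenes were not analysed here.

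Stages were compared as differences in log2(FPKM + 1) with a threshold of 1, without a test. Unigenes were named from the annotation held with the paper, and 0 IDs matched the reference gene table. Named unigenes were, per step, the 3 largest differences each way of all unigenes and the 10 largest each way of Rosaceae matches, with at least 1 FPKM at both stages, the 3 largest peaks and troughs, up to 3 members per list that were past 1 and reached 5 FPKM, and those the paper names. The members, 14 lists and rules were chosen with earlier results of these data known. The counting code was run on simulated stages of 2329 unigenes, where it recovered 100 of 100 peaks and 100 of 100 troughs with 0 others. That run checked only the code. How reliable the peaks and troughs counted in the deposited means are was not tested. Alternatives were pseudocounts of 0.1 and 5, minimums of 1 and 5 FPKM, unigenes above 0 at all 3 stages, 2 scalings, a threshold of 2 and Spearman's rho. Using the 17 DAF column in place of 22 DAF, and leaving out the 541 unigenes, were added after the data were seen. Python 3.11.15, numpy 2.4.6, pandas 2.3.3 and matplotlib 3.10.9 were used.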

Additional observations from a re-analysis of the deposited data

How the results depend on the processing

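No paired analysis was possible because only 1 mean per group was at hand, and for the same reason no replicate could be left out. With a pseudocount of 5, 1394, 982 and 1065 unigenes were changed from 22 to 27, 27 to 32 and 22 to 32 DAF, with 507 peaks, 47 troughs and 60 changes over the list members. A minimum of 5 FPKM gave 1807, 1224 and 1427 changed unigenes, 623 peaks and 96 troughs. Among unigenes above 0 at all 3 stages the numbers were 1404, 660 and 1059, with 305 peaks, 73 troughs and 67 changes over the list members. A threshold of 2 gave 1156, 950 and 959, with 466 peaks, 41 troughs, 35 changes over the list members and 61 over the named unigenes. In normal fruits the steps from 22 to 27 and 27 to 32 DAF had 1151 and 979 changed unigenes with a pseudocount of 5, 1460 and 1342 with a minimum of 5 FPKM, 919 and 903 among unigenes above 0 at all 3 stages and 1035 and 940 at a threshold of 2. These settings admit fewer unigenes or demand larger differences by construction. A pseudocount of 0.1, which damps low values less, gave 293 troughs.

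The share of higher ones among changed unigenes was 57.5% from 22 to 27 DAF and 49.2% from 22 to 32 DAF with equal totals, 53.3% and 51.8% with median-of-ratios scaling, and 80.6% and 74.7% with the 17 DAF column in place of 22 DAF. For normal fruits it was 50.2% with equal totals, 52.7% with median of ratios and 76.3% among unigenes above 0 at all 3 stages from 22 to 27 DAF, and 41.6% with median of ratios from 27 to 32 DAF. The cause was not tested. Likeness of the 22 and 27 DAF columns was 0.71 as Spearman's rho and 0.68 with a minimum of 5 FPKM, that of 22 and 32 DAF was 0.73 in both, and that of 27 and 32 DAF was 0.67 with the minimum. Over the named unigenes and the 8 planned settings, 1298 of their differences were labelled the same, 75 fell below the threshold and 13 passed it. Of those past the threshold 0 changed sign, but for differences within 1 a change of sign was not counted. Minimums of 1 and 5 FPKM and the limit to unigenes above 0 at all 3 stages leave each difference as it is. The 174, 164 and 148 differences under these settings were thus the same by construction.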
